A study of Homo sapiens with 18 samples.

Results

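Group D6 is the pair of libraries, of 18 in the series, in which VPR-D9 cells were cultured with doxycycline under the code D6. It is set here against the 2 libraries of untreated VPR-D9 cells, so 4 of the 18 libraries carry the comparison, and every gene in the table was considered. VPR-D9 is an isogenic line of K562, a human chronic myeloid leukaemia line with erythroid and megakaryocytic features, in which doxycycline induces dCas9-VPR. dCas9-VPR is a catalytically dead Cas9 fused to a strong transcriptional activator, and the design aims it at SAMD9. The other doxycycline group of the line is coded D2000. The general protocol gives doxycycline at 2 µg/mL for induction, but what the codes D6 and D2000 stand for, whether dose or duration differed between them, and how long the cells were exposed, no source used here says. KRAB-D9 cells carry an inducible repressor, dCas9-KRAB, and were given doxycycline at 2 µg/mL, interferon alpha at 1000 U/mL for 24 hours, both, or neither. The parental line was given the same interferon or left untreated. Parental cells with doxycycline were not analysed here, so responses to doxycycline itself, to the dCas9 fusion and to SAMD9 cannot be told apart within VPR-D9. Whether VPR-D9 is a single clone, and whether its replicate libraries stand for separate cultures, the labels leave unsaid, so p-values measure the spread between these samples, which may be technical.

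SAMD9 is a cytoplasmic protein with a sterile alpha motif. Interferon induces it, it restricts poxviruses, and activating germline variants of SAMD9 and of its neighbour and paralogue SAMD9L restrain growth of blood-forming cells and cause marrow failure syndromes. An activator held at a promoter by its guide RNA recruits the transcription machinery there.

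D6 libraries held 49.9 and 46.9 M counts and untreated VPR-D9 libraries 59.5 and 63 M, within 32.7 to 63 M over the 18. Mitochondrially encoded genes took 4.52 and 4.78% of counts in D6 and 4.33 and 4.44% in untreated VPR-D9 cells. Erythroid markers were present in both groups: KLF1, the erythroid master regulator, averaged 127 CPM (counts per 1000000 after TMM scaling) in D6 and 140 CPM in untreated cells, and GATA1, a transcription factor of erythroid and megakaryocytic cells, 192 CPM in D6 and 204 CPM in untreated cells. The T-cell marker CD3E (0.296 CPM in D6 and 0.228 CPM in untreated cells), the monocyte marker CD14 (0.283 CPM in D6 and 0.394 CPM in untreated cells) and the granulocyte enzyme MPO (0 CPM in D6 and 0.0158 CPM in untreated cells) were at or near 0. In bulk RNA, fewer cells of a type and less RNA per cell cannot be told apart.

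SAMD9 RNA rose 15.6-fold in D6, while its paralogue next door did not pass the test. SAMD9 (ENSG00000205413.8, chromosome 7, 93099513 to 93118023, GRCh38) had 936 and 960 CPM in the D6 libraries, against 59.9 and 61.4 CPM in the untreated libraries. Both D6 libraries lay far above both untreated ones. The log2 fold change was 3.97 ± 0.06 (± is the standard error; edgeR's quasi-likelihood test, adjusted p = 1.02e-27 after Benjamini and Hochberg). Untreated VPR-D9 cells already held more SAMD9 RNA than the untreated parental line (59.9 and 61.4 CPM against 9.31 and 9.05 CPM; log2 fold change 2.72, edgeR adjusted p = 4.78e-23). Interferon took the parental line to 168 and 154 CPM, so D6 levels lay above every library outside the doxycycline groups of VPR-D9.

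SAMD9L (ENSG00000177409.12, chromosome 7, 93130056 to 93148385), which interferon also induces, had 3.78 and 4.11 CPM in D6, against 3.6 and 4.61 CPM in untreated cells. The D6 values fell between the untreated ones, and the log2 fold change was -0.06 ± 0.16 (edgeR, adjusted p = 0.928). Without the second untreated library it was 0.13, so no direction is given for it. Of 27 genes tested with their middle within 1000 kb of the SAMD9 start, 1 was higher in D6, the targeted SAMD9 itself, and 2 were lower. Over all genes tested, 3.19% were higher and 3.41% lower, so a count this small describes these genes only. CDK6, a G1 cyclin-dependent kinase with its middle 397 kb away, was lower (141 and 136 CPM in D6, 159 and 163 CPM in untreated cells; -0.22 ± 0.04, edgeR adjusted p = 0.000929). HEPACAM2, an adhesion-type membrane protein with its gene's middle 89.5 kb away, was also lower (-0.49 ± 0.14, edgeR adjusted p = 0.0202), but lost its call without the first D6 or the second untreated library.

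The promoter windows of SAMD9 and SAMD9L are shown because 1 of these interferon-inducible neighbours passed the test and the other did not, and that of RNF223 because its RNA, at 50.6 and 54.6 CPM in D6, had 2 counts in all in untreated cells. Each window runs from 250 bases before the RefSeq start to 50 after it, on the gene's strand, 5′ to 3′ (RefSeq, GRCh38.p14; SAMD9 chr7:93117930-93118229, SAMD9L chr7:93148336-93148635, RNF223 chr1:1074257-1074556, all minus strand). Capitals mark GAAA followed after any 2 bases by GAAA, the core of an interferon-stimulated response element, and AAACTGAAAC, the 1 of the 3 longest runs shared by the SAMD9 and SAMD9L windows (10 bases each) that overlaps that element in SAMD9. The run was picked after both windows had been read.
SAMD9: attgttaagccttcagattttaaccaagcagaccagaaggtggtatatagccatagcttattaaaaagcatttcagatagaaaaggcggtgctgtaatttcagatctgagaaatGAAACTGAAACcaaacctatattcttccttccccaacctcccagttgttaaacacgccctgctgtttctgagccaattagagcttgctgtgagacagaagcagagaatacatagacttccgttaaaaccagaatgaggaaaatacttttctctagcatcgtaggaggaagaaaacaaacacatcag
SAMD9L: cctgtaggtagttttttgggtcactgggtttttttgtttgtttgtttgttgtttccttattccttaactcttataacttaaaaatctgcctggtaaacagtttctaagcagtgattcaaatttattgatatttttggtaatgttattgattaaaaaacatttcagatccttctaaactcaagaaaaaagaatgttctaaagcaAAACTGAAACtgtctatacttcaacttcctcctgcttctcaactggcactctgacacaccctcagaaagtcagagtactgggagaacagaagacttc
RNF223: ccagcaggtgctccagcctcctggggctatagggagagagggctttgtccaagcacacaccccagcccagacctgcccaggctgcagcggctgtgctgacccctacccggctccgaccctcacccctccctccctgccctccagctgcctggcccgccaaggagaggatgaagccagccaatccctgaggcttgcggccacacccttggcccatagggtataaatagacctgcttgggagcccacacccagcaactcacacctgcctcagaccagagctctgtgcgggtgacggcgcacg
The SAMD9 window held the element once, from base 115, overlapping AAACTGAAAC from base 116. The SAMD9L window held AAACTGAAAC from base 204 and no such element, and the RNF223 window held neither on either strand. Over 27303 RefSeq promoter windows of the same length, 3.65% held the element and 0.136% held AAACTGAAAC on either strand. GC content was 39.7% in the SAMD9 window, 34.3% in that of SAMD9L and 65.7% in that of RNF223. The longest run of letters shared with the SAMD9 window on either strand was 9 bases in RNF223, 7 in DPEP1 and 10 in SMPDL3B, against a median of 8 over 12365 tested genes with a window. These matches describe letters and are not sites.

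**Figure D1:**
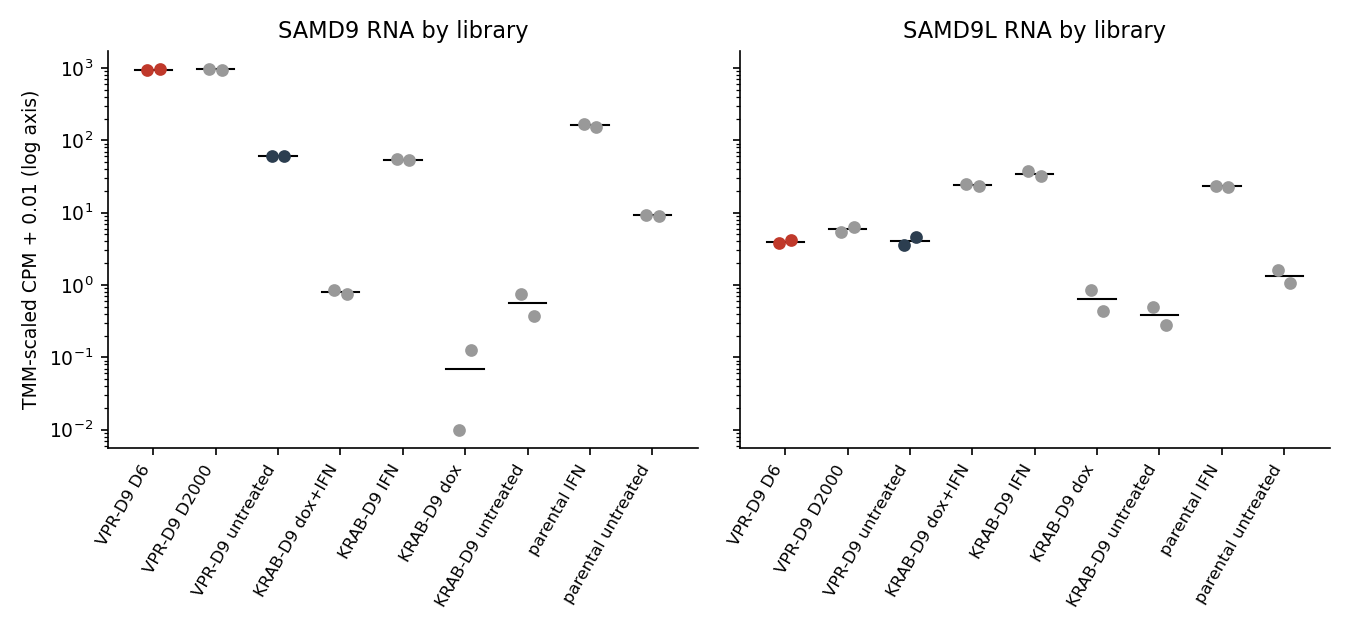
SAMD9 (left) and SAMD9L (right) RNA in each of the 18 libraries as TMM-scaled CPM plus 0.01 on a log axis; each point is 1 library, the bar the mean of 2, red D6 and dark blue untreated VPR-D9. SAMD9 was at 936 and 960 CPM in D6 and at 59.9 and 61.4 CPM in untreated VPR-D9, while the SAMD9L values of these 2 groups overlap.

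Outside SAMD9, rises and falls were about equally frequent, and rises were the larger in size. Of 22143 genes tested, 707 were higher in D6 (3.19%) and 754 lower (3.41%), 6.6% in all at an adjusted p under 0.05 (edgeR). At an unadjusted p under 0.05 there were 3863. D6 libraries lay both above both untreated ones in 22.1% of genes and both below in 26.2%. The median size of the log2 change was 0.528 among the higher genes and 0.206 among the lower ones, and 514 of the 754 lower genes (68.2%) changed by under 0.25. Past 2-fold there were 209 higher genes (0.944% of those tested) and 19 lower ones (0.0858%). The 209 sat at a median of 1.51 CPM in D6 and 0.314 CPM in untreated cells, and 31 of them had no untreated count. The 19 sat at a median of 0.188 CPM in D6 and 0.574 CPM in untreated cells, and 12 of them were under 1 CPM untreated. All 707 higher genes sat at a median of 21.3 CPM in D6 and 14.1 CPM in untreated cells. All 754 lower genes sat at a median of 89.1 CPM in D6 and 102 CPM in untreated cells. Leaving out 1 of the 4 libraries at a time gave 431 to 460 higher and 301 to 404 lower genes, in each case over 1.5 times fewer. With library totals in place of TMM scaling, 878 were higher and 394 lower, so 69% of calls were higher instead of 48.4%.

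**Figure D2:**
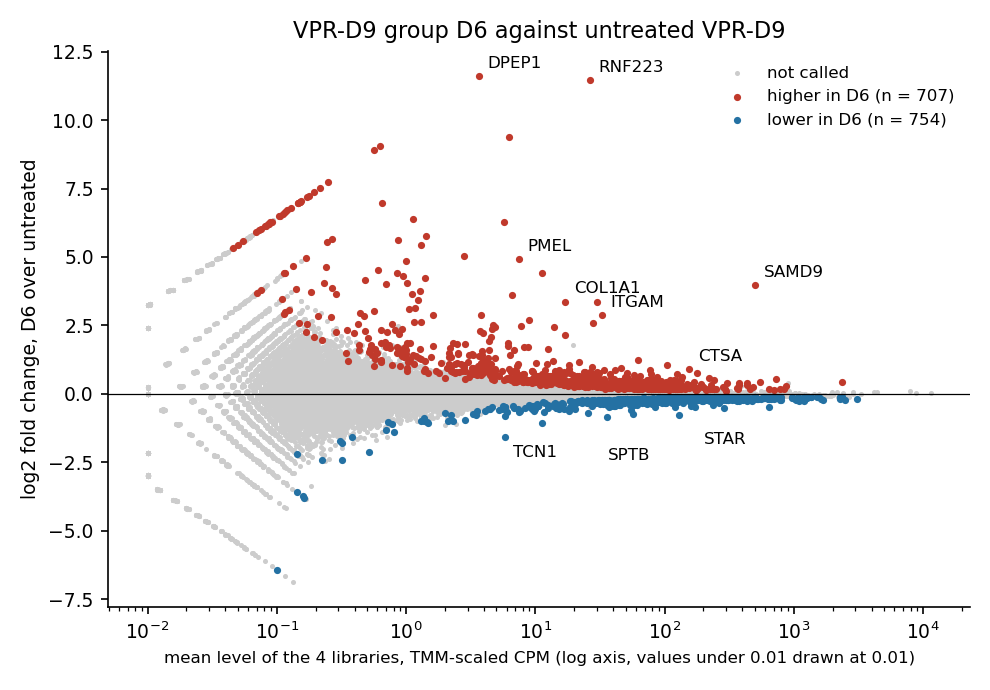
Log2 fold change, D6 over untreated VPR-D9, against the mean level of the 4 libraries (TMM-scaled CPM, log axis); each point is 1 of 22143 genes, red called higher (707) and blue called lower (754). The called rises reach the largest fold changes at low levels. Most called falls lie close to 0 at high levels, while the 19 falls past 2-fold lie mostly at low levels. The streaks at the left are genes of a few counts, whose fitted change depends on the prior count.

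The largest rises were in genes nearly silent in untreated cells. DPEP1, a membrane dipeptidase of kidney epithelium, had 7.12 and 7.54 CPM in D6 and no count in either untreated library, which makes it at least 300-fold higher, taking 3 counts over the group as the floor (edgeR adjusted p = 3.84e-19). RNF223, a RING-domain protein, had 50.6 and 54.6 CPM in D6, against 0 and 0.0316 CPM in untreated cells, where it had 2 counts in all. Its ratio of 3230 had a 95% counting interval of 894 to 26700 (edgeR adjusted p = 2.29e-23), the intervals here covering counting error only. PTPRN2-AS1, a long noncoding RNA antisense to PTPRN2, had 11.8 and 13.3 CPM in D6, against 0 and 0.0316 CPM in untreated cells, a ratio of 769 (212 to 6350), uncertain because the strand setting of the counting is not given in the sources used here. TMEM255A, a membrane protein, had 2.59 and 1.86 CPM in D6, against 0 and 0.0474 CPM in untreated cells, a ratio of 91.8 (31 to 448).

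The other 8 named rises started from low but measurable levels. PMEL, which forms the fibrils of melanosomes, had 13.6 and 15.7 CPM in D6, against 0.452 and 0.505 CPM in untreated cells (4.92 ± 0.17, edgeR adjusted p = 8.86e-24). SFN, the 14-3-3 sigma protein that p53 can induce, had 21.8 and 21.1 CPM in D6, against 0.887 and 1.14 CPM in untreated cells (4.4 ± 0.15). GNG8, a G-protein gamma subunit, had 10.2 and 12.7 CPM in D6, against 0.0837 and 0.205 CPM in untreated cells (6.26 ± 0.29). In these 3 genes the lowest D6 value lay more than 10-fold above the highest untreated one. OSCAR, a collagen receptor of osteoclasts and myeloid cells, rose by 5.04 ± 0.72, and SMPDL3B, a membrane-anchored phosphodiesterase, by 5.78 ± 0.57 on the log2 scale. MPP2, a membrane scaffold protein, rose by 5.44 ± 0.5, AHNAK2, a very large scaffold protein, by 4.24 ± 0.38, and CLIC3, a chloride intracellular channel protein, by 4.04 ± 0.47. Adjusted p-values of the 12 named rises (edgeR) ran from 8.86e-24 for PMEL to 0.00222 for OSCAR.

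Falls were smaller. TCN1, which encodes the vitamin B12 carrier haptocorrin, had 2.43 and 3.42 CPM in D6, against 8.87 and 8.45 CPM in untreated cells (-1.56 ± 0.31, edgeR adjusted p = 0.000632). MS4A3, a membrane protein of granulocyte-monocyte progenitors, had 7.26 and 7.08 CPM in D6, against 14.8 and 15.6 CPM in untreated cells (-1.08 ± 0.18). FAM178B had 26.5 and 24.1 CPM in D6, against 45.3 and 46.3 CPM in untreated cells (-0.86 ± 0.07, edgeR adjusted p = 3.85e-12). These 3 genes did not overlap between the groups, which the naming rule required. GRAP2, the adaptor Gads of lymphoid and myeloid receptors, fell by 0.82 ± 0.12 on the log2 scale. MYO3B, a class III myosin, the pseudogene TDH, HMCN1, an extracellular matrix protein, LINC00858, a noncoding RNA, MME, the protease neprilysin, PTPRR, a tyrosine phosphatase, TREML2, a TREM-family receptor, and MMP17, a membrane-anchored metalloproteinase, fell by 0.87 to 1.06. All 8 were under 4 CPM in every library of the comparison. Each of the 8 lost its call when at least 1 of the 4 libraries was left out.

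**Figure D3:**
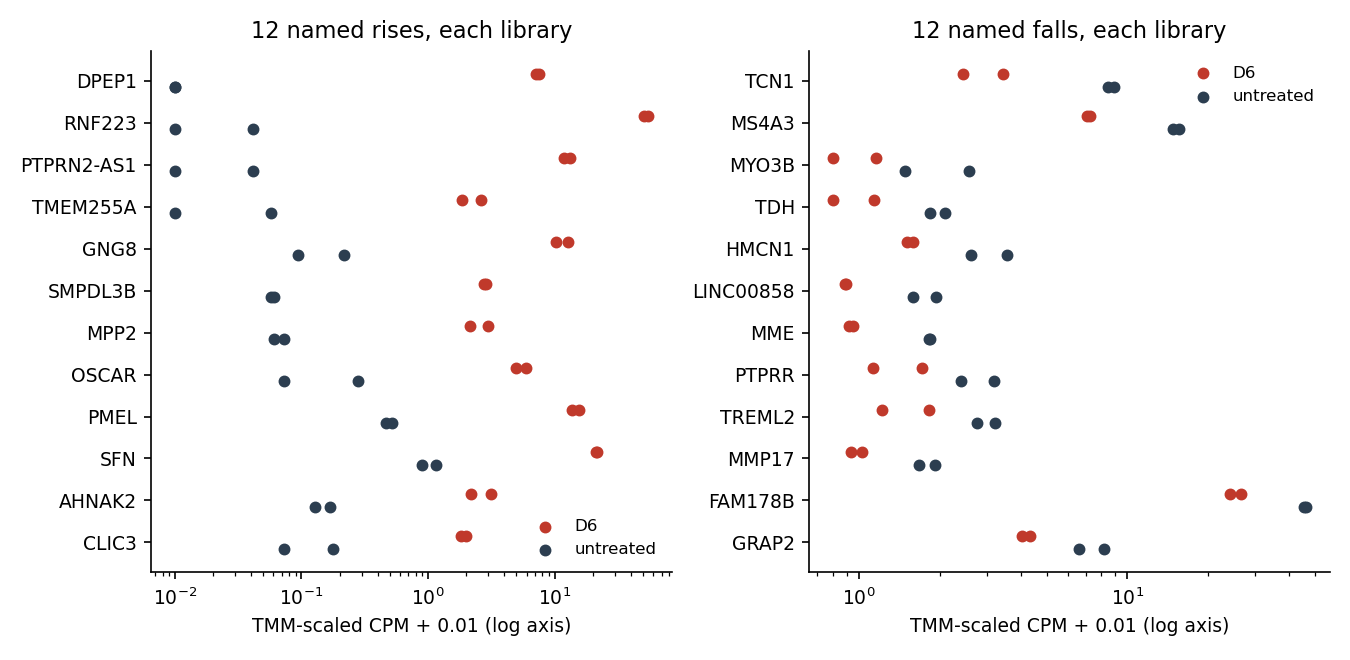
The 12 named rises (left) and 12 named falls (right) in each library, as TMM-scaled CPM plus 0.01 on log axes; red is D6 and dark blue untreated VPR-D9. No gene overlaps between the groups, which the naming rule required; DPEP1 and RNF223 lie furthest apart, and the falls are small beside the rises.

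A minority of interferon-stimulated genes changed, most of them slightly. Of 75 tested, 12 were higher (16%) and 4 lower (5.33%), against 3.19% higher and 3.41% lower over all genes tested. The median log2 change was 0.06, against -0.01 over all genes. In parental cells given interferon, 69 of the 75 were higher with a median of 3.12, against 3.03% of all genes higher there. IRF9, the DNA-binding part of the interferon response complex, had 2.97 and 2.99 CPM in D6, against 1.24 and 1.77 CPM in untreated cells (0.98 ± 0.2, edgeR adjusted p = 0.00115; 2.20 in the parental line with interferon). IFI6, a mitochondrial protein that opposes cell death, had 19.9 and 19.4 CPM in D6, against 10.9 and 10.6 CPM in untreated cells (0.87 ± 0.2, edgeR adjusted p = 0.0287; 10.07 in the parental line). Both genes were higher in each D6 library, as were 22.1% of all genes. ISG15, a ubiquitin-like modifier, had 36.9 and 36.2 CPM in D6, against 31.2 and 33.1 CPM in untreated cells (0.19 ± 0.05; 7.03 in the parental line). OAS2, a double-stranded RNA sensor, had 0.502 and 0.271 CPM in D6 and no untreated count, at least 16.1-fold higher over the same floor. Smaller rises passed for DTX3L, an E3 ligase (0.34 ± 0.06), and PARP12, an ADP-ribosyltransferase (0.31 ± 0.06). BST2, which tethers virions (-0.19), was among the 4 lower genes.

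Without 1 library at a time, 5 to 9 interferon-stimulated genes were called higher and 1 to 3 lower. In the interferon receptor pathway 2 of 19 genes rose (10.5%, against 3.19% of all genes). They were the kinase JAK2 (79.7 and 81.1 CPM in D6, 61.2 and 67.1 CPM in untreated cells; 0.33 ± 0.05) and its inhibitor SOCS3 (0.38 ± 0.1). Of 20 class I antigen presentation genes none rose and 3 fell (15%, against 3.41% of all genes). Those 3 were the chaperones CALR (-0.16 ± 0.03) and PDIA3 (-0.17 ± 0.04) and the class I molecule HLA-E (-0.24 ± 0.06). DESeq2 and an unadjusted p under 0.05 also gave 0 higher in that list, and edgeR on the D6 and untreated libraries alone gave 1. SOCS3 and HLA-E lost their calls in at least 3 of the 4 fits without 1 library.

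Most ribosome assembly genes did not pass the test, and the changes of those that did were small. Over all genes tested, 3.19% were higher and 3.41% lower. Of 48 genes of the small-subunit processome and 40S assembly, 1 was higher (2.08%) and 3 lower (6.25%), with a median of -0.08. UTP20, a scaffold of that complex, had 153 and 157 CPM in D6, against 171 and 174 CPM in untreated cells (-0.15 ± 0.04, edgeR adjusted p = 0.0196). NAT10, an acetyltransferase for ribosomal RNA (-0.17 ± 0.04), and NOP14 (-0.15 ± 0.05) were the other lower genes. Of 45 genes of 60S assembly 5 were lower (11.1%), among them EBNA1BP2 (208 and 215 CPM in D6, 251 and 247 CPM in untreated cells; -0.24 ± 0.04, edgeR adjusted p = 6.66e-05). Of 16 snoRNP and nucleolar scaffold genes 5 were lower (31.2%), led by the ribosomal RNA methyltransferase FBL (449 and 447 CPM in D6, 519 and 501 CPM in untreated cells; -0.19 ± 0.04). POLR1G was the 1 lower gene of 15 for RNA polymerase I (-0.31 ± 0.09), and 3 of 78 cytosolic ribosomal protein genes (3.85%, near the share over all genes) were lower (RPS26, RPSA and RPLP0, by 0.10 to 0.15). With library totals the 3 ribosomal protein calls were lost and 1 gene was called higher, and 1 small-subunit, 2 of the 60S, 1 snoRNP and 0 RNA polymerase I genes were lower. UTP20, NOP14 and POLR1G lost their calls in that setting. Without 1 library at a time, 0 to 2 small-subunit, 1 to 3 of the 60S, 0 to 3 snoRNP, 0 RNA polymerase I and 0 or 1 ribosomal protein genes were lower. With TMM scaling most members lay slightly below untreated levels, 41 of the 48 small-subunit, 43 of the 45 of 60S assembly, 14 of the 16 snoRNP and 66 of the 78 ribosomal protein genes, against 11406 of 22143 over all genes. The medians were -0.08 small-subunit, -0.07 60S, -0.1 snoRNP and -0.03 ribosomal protein. With library totals they were -0.04, -0.04, -0.06 and 0, and signs were not counted there. At an unadjusted p under 0.05, 15 small-subunit, 17 of the 60S, 8 snoRNP and 19 ribosomal protein genes were lower, and 1, 0, 0 and 2 were higher. The counts rose when edgeR was fitted to the D6 and untreated libraries alone, with 7 small-subunit, 13 of the 60S, 6 snoRNP and 11 ribosomal protein genes lower. Near-identical copies make RPS26, RPSA and RPLP0 uncertain, since no source used here says how multi-mapping reads were counted.

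In D2000 the same lists moved in nearly every member. The 48 small-subunit genes had 0 higher and 47 lower (median -0.99), the 45 of 60S assembly 0 and 44 (median -1.06) and the 78 ribosomal proteins 0 and 73 (median -0.32). Over all genes, 46.1% were called in D2000 against untreated cells, 4853 higher and 5348 lower. D6 and D2000 are set against the same 2 untreated libraries, so these 2 sets of values are not independent. Tested directly, D6 was above D2000 in 47 of the 48 small-subunit genes, 44 of the 45 of 60S assembly and 73 of the 78 ribosomal proteins, against 21.7% of all genes higher and 40.4% called either way. With library totals these were 45, 44 and 38 genes, and 1, 0 and 4 were lower. UTP20 was 1.32 higher in D6 than in D2000 on the log2 scale (edgeR adjusted p = 7.82e-25).

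The difference in SAMD9 itself between the 2 groups did not pass the test: 936 and 960 CPM in D6, 974 and 948 CPM in D2000. It was -0.02 ± 0.05 (edgeR adjusted p = 0.821), with a 95% interval of -0.14 to 0.10. That rests on the TMM scaling: with library totals the difference was -0.21 ± 0.05 and passed the test (edgeR adjusted p = 0.00141). With library totals the median of all genes in that comparison moved to -0.246, against -0.051 with TMM, and 2945 genes were higher and 6481 lower, against 4797 and 4152. SAMD9L was lower in D6 than in D2000 (3.78 and 4.11 CPM in D6, 5.45 and 6.25 CPM in D2000; -0.57 ± 0.16, edgeR adjusted p = 0.00315).

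All 12 named rises were lower in D6 than in D2000 and passed the test there (edgeR), with log2 differences of -1.18 to -3.03, against 18.8% of all genes lower. PMEL had 13.6 and 15.7 CPM in D6 and 129 and 110 CPM in D2000 (D6 against D2000 -3.03 ± 0.1, edgeR adjusted p = 2.32e-24). DPEP1 had 7.12 and 7.54 CPM in D6 and 43.9 and 48.1 CPM in D2000 (-2.65 ± 0.15), and RNF223 50.6 and 54.6 CPM in D6 and 145 and 157 CPM in D2000 (-1.52 ± 0.1). COL1A1, the main chain of type I collagen, did not follow that order. It had 31.4 and 30.9 CPM in D6, 30.9 and 30 CPM in D2000, and 3.38 and 2.67 CPM in untreated cells, so D6 was 3.37 ± 0.15 above untreated (edgeR adjusted p = 1.65e-19) and 0.03 from D2000 (95% interval -0.26 to 0.33), or -0.16 from D2000 with library totals (edgeR adjusted p = 0.337).

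The genes furthest above D2000 in D6 by the naming rule were STAR, CD24P4, IGF1, CALB1 and CD24. STAR, which moves cholesterol into mitochondria for steroid synthesis, had 97.3 and 94 CPM in D6, 9.37 and 9.17 CPM in D2000, and 164 and 163 CPM in untreated cells. D6 lay between the other groups, 3.37 ± 0.06 above D2000 (edgeR adjusted p = 2.12e-33) and -0.77 ± 0.05 from untreated. CD24, a mucin-like surface protein, had 717 and 740 CPM in D6, 103 and 109 CPM in D2000, and 872 and 846 CPM in untreated cells. CD24P4 is a pseudogene of near-identical sequence and is uncertain for that reason. The CD24 fall from untreated cells (-0.24 ± 0.05) lost its call without the first D6 or the first untreated library. CALB1, a calcium buffer, was 2.9 higher in D6 than in D2000, and IGF1, a growth factor, 2.97. Furthest below D2000 were LOXL4, a lysyl oxidase of the matrix (-5.36), MYO15A, an unconventional myosin (-4.06), FBLN2, a matrix glycoprotein (-3.9), TTC24 (-3.84) and ARHGEF15, a guanine nucleotide exchange factor (-3.73). All 5 stayed under 1 CPM in D6.

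Of the cell cycle lists, G1/S and G2/M members that passed the test were all lower in D6, by small amounts. Of 30 G1/S genes, which carry DNA replication, 12 were lower (40%) and 0 higher, against 3.41% and 3.19% of all genes. A negative change was seen in 29 of the 30, against 11406 of 22143 over all genes, and the median was -0.13. MCM7, a subunit of the replicative helicase, had 726 and 722 CPM in D6, against 844 and 832 CPM in untreated cells (-0.21 ± 0.04, edgeR adjusted p = 0.000283). RRM2, the small subunit of ribonucleotide reductase, had 269 and 274 CPM in D6, against 316 and 307 CPM in untreated cells (-0.20 ± 0.04). The groups did not overlap in either gene, while D6 lay below both untreated libraries in 26.2% of all genes. Of 32 G2/M genes 8 were lower (25%) and 0 higher, led by cyclin A2, CCNA2 (201 and 203 CPM in D6, 237 and 240 CPM in untreated cells; -0.24 ± 0.04, edgeR adjusted p = 3.66e-05), and with MKI67, the proliferation antigen, at -0.20 ± 0.04. At an unadjusted p under 0.05, 19 genes of each list were lower and 0 higher, against 2177 lower and 1686 higher of all 22143. DESeq2 called 13 and 8 lower and 0 higher. With library totals, 8 G1/S and 6 G2/M genes were called lower and 0 higher. Leaving out 1 library at a time left 6 to 10 G1/S and 3 to 7 G2/M genes lower. CDK2 was higher (114 and 119 CPM in D6, 92.7 and 88.4 CPM in untreated cells; 0.37 ± 0.05), and the inhibitor CDKN1C lower (-0.56 ± 0.1), out of 15 CDK inhibitors and G1 cyclins with 1 higher and 2 lower.

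The erythroid markers that passed the test were all lower in D6. Of 43 tested, 15 were lower (34.9%) and 0 higher, against 3.41% and 3.19% of all genes. The median of the 43 was -0.15, against -0.01 over all genes. Their summed level was 4175 and 4247 CPM in D6, against 4568 and 4537 CPM in untreated cells. SPTB, the beta chain of red cell spectrin, had 43.3 and 42 CPM in D6, against 70.5 and 72.7 CPM in untreated cells (-0.75 ± 0.05, edgeR adjusted p = 6.55e-14). KEL, a blood group protease, fell by 0.32 ± 0.05 and RHD, a Rh blood group antigen, by 0.53 ± 0.09 on the log2 scale. EPB42, a red cell membrane protein, was under 0.5 CPM in all 4 libraries and fell by 1.73 ± 0.38. HBG2, a fetal globin, was at -0.55 ± 0.08, but may share reads with the near-identical HBG1. DESeq2 called 17 lower and 0 higher. At an unadjusted p under 0.05 there were 26 lower and 3 higher, against 2177 lower and 1686 higher of all 22143 genes. Leaving out 1 library at a time left 10 or 11 markers lower, and with library totals 12 were lower and 1 higher.

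**Figure D4:**
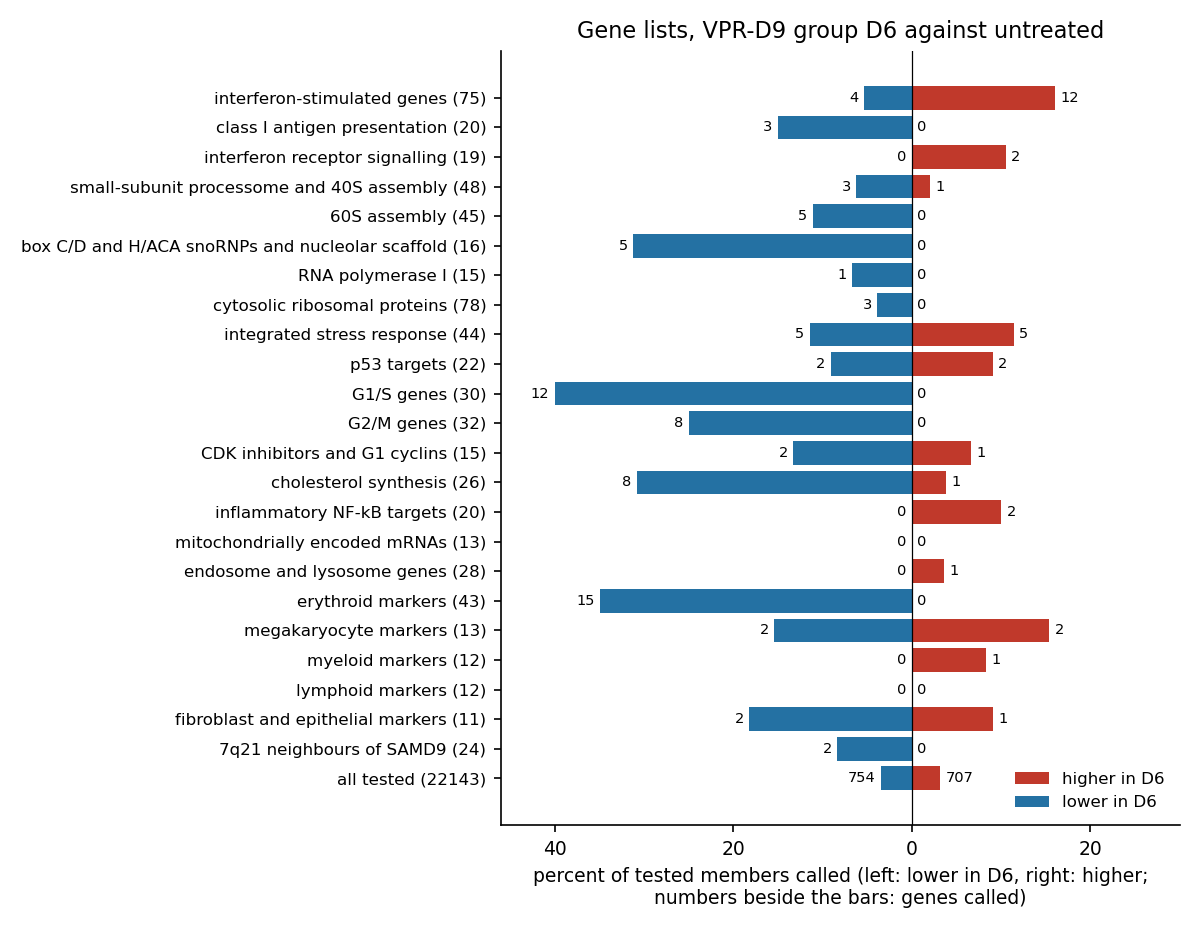
Percent of the tested members of 23 gene lists, and of all 22143 genes, called higher (red, right) or lower (blue, left) in D6 against untreated VPR-D9; numbers beside the bars count genes and those in brackets the members tested. G1/S genes (12 of 30) and erythroid markers (15 of 43) have the longest bars toward lower, and interferon-stimulated genes (12 of 75) the longest toward higher.

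KRAB-D9 cells given doxycycline share no library with D6, and their SAMD9 fell to 0 and 0.117 CPM, against 0.75 and 0.364 CPM in untreated KRAB-D9 cells (-3.23 ± 0.5). In them 24.7% of genes were called, 2654 higher and 2815 lower. Of the 707 genes higher in D6, 174 (24.6%) were also higher and 164 (23.2%) lower in KRAB-D9 with doxycycline, where 12% of all genes were higher and 12.7% lower. Of the 754 genes lower in D6, 138 (18.3%) were higher and 323 (42.8%) lower. The shares over all genes are not matched for level. In untreated VPR-D9 cells the median was 14.1 CPM for the 707, 102 CPM for the 754 and 3.08 CPM over all genes. As shares of the KRAB-D9 lists, the 174 were 6.56% of its higher genes and the 323 were 11.5% of its lower genes. The doxycycline effect differed between D6 and KRAB-D9, by the interaction term, for 3433 genes (15.5%), with D6 the more positive in 7.87% of genes tested and the more negative in 7.63%. Among these were 419 of the 707 higher and 346 of the 754 lower genes.

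Among erythroid and cholesterol genes the calls ran mostly lower in D6 and mostly higher in KRAB-D9 with doxycycline, though most members were not called in D6. Of the 43 erythroid markers, 30 were higher and 3 lower in KRAB-D9 with doxycycline (median 0.44), and the difference between the effects was called for 29, all of them more negative in D6, against 7.63% of all genes. Of 26 cholesterol synthesis genes, 1 was higher (3.85%) and 8 lower (30.8%) in D6, against 3.19% and 3.41% of all genes. Their median was -0.11 in D6. In KRAB-D9 with doxycycline 18 were higher and 1 lower (median 0.28). The difference was called for 18, all more negative in D6. HMGCS1, an early enzyme of the pathway, had 145 and 149 CPM in D6, against 173 and 177 CPM in untreated cells (-0.25 ± 0.04; KRAB-D9 0.67; difference -0.92, edgeR adjusted p = 2.35e-14). TM7SF2, a sterol reductase, was higher in D6 (30.5 and 30.4 CPM in D6, 21 and 18.9 CPM in untreated cells; 0.61 ± 0.09) and was 0.53 in KRAB-D9 (edgeR adjusted p of the difference 0.788). Leaving out 1 library at a time left 4 to 6 cholesterol genes lower in D6. In the G1/S list 12 of 30 genes were lower and 2 higher in KRAB-D9 with doxycycline (median -0.12), 29 were lower in D2000 against untreated cells, and the difference between D6 and KRAB-D9 was called for 1 positive and 3 negative. In the G2/M list 1 of 32 was lower and 10 higher in KRAB-D9 with doxycycline, 24 were lower in D2000, and the difference between D6 and KRAB-D9 was called for 12, all more negative in D6.

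**Figure D5:**
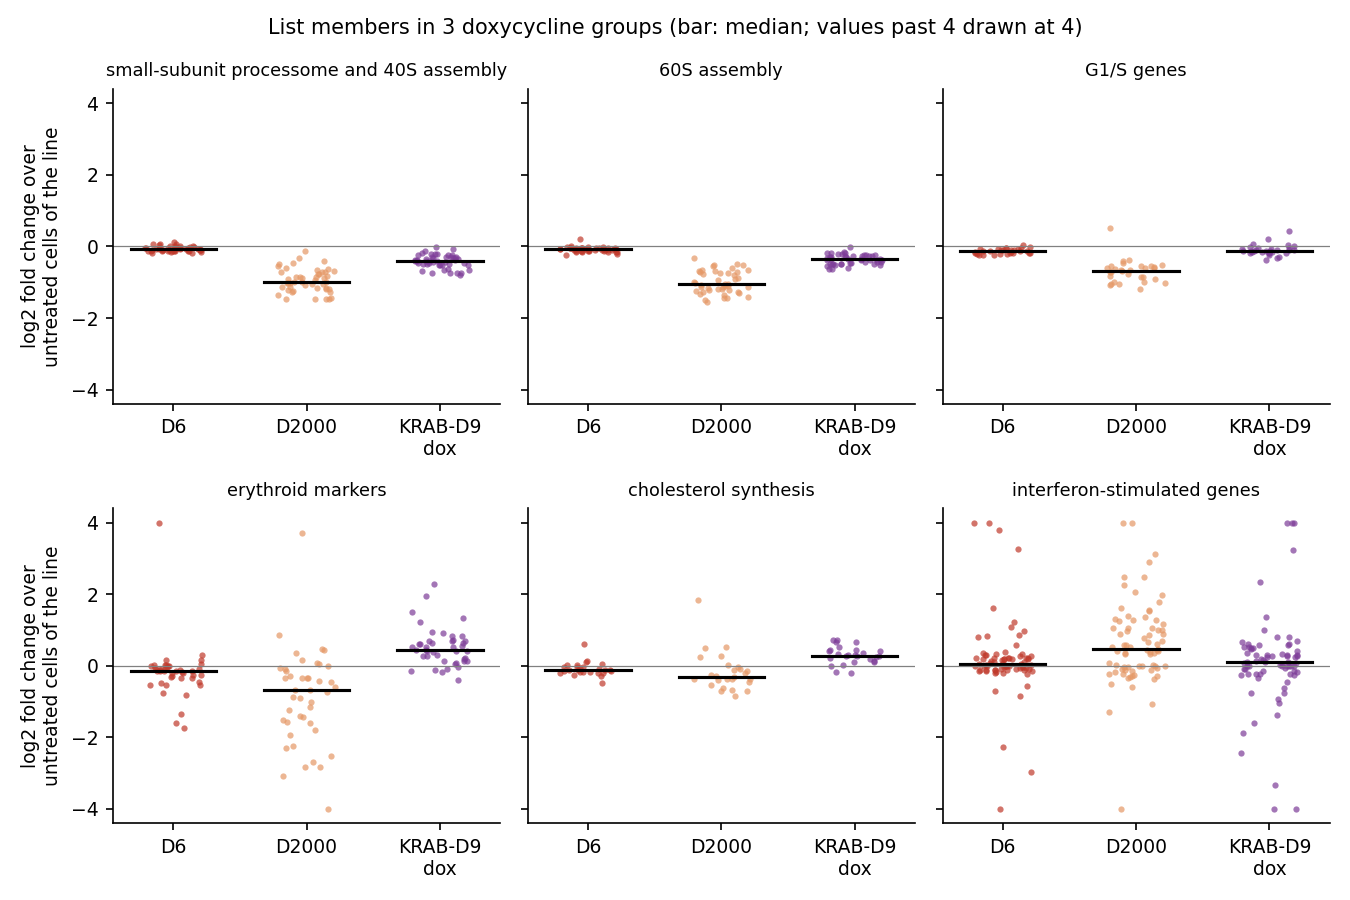
Log2 fold change over untreated cells of the same line for each member of 6 gene lists in D6, D2000 and doxycycline-treated KRAB-D9; points are genes, the bar is the median, and values past 4 are drawn at 4. Ribosome assembly medians are -0.08 and -0.07 in D6 and -0.99 and -1.06 in D2000, and the erythroid and cholesterol medians are negative in D6 and positive in KRAB-D9; D6 and D2000 share their untreated libraries.

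Single genes of other lineage lists passed the test. ITGAM, the integrin CD11b of myeloid cells, had 58.5 and 56.6 CPM in D6, against 7.41 and 8.34 CPM in untreated cells (2.87 ± 0.08, edgeR adjusted p = 3.01e-26). It was the 1 myeloid marker of 12 that was higher, and none was lower; the summed level of the list was 195 and 191 CPM in D6, against 148 and 149 CPM in untreated cells. Without ITGAM the other 11 summed to 137 and 134 CPM in D6, against 141 and 140 CPM in untreated cells. Of 13 megakaryocyte markers 2 were higher (15.4%) and 2 lower (15.4%), against 3.19% and 3.41% of all genes, with a median of 0.06. ITGA2B, the platelet integrin CD41, was among the higher (13 and 11.6 CPM in D6, 8.20 and 5.84 CPM in untreated cells; 0.81 ± 0.17). NFE2 (-0.23 ± 0.04) and TUBB1 (-0.48 ± 0.13) were lower. ITGA2B lost its call without the first D6 or the second untreated library, and TUBB1 without the second D6 or the first untreated library. COL1A1 was the 1 higher of 11 fibroblast and epithelial markers, KRT19 (-0.24 ± 0.05) and FN1 (-0.35 ± 0.09) the 2 lower. FN1 lost its call in each fit without 1 library and KRT19 without the first untreated one. None of 12 lymphoid markers was called in either direction by edgeR or DESeq2, with 0 at an unadjusted p under 0.05 and a summed level of 14.2 and 15.1 CPM in D6 and 14 and 15.1 CPM in untreated cells.

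Stress lists split in direction and organelle lists held few calls. Of 44 integrated stress response genes 5 were higher (11.4%) and 5 lower (11.4%), against 3.19% and 3.41% of all genes. PCK2, a mitochondrial gluconeogenic enzyme, rose (81 and 79 CPM in D6, 63.8 and 59.6 CPM in untreated cells; 0.38 ± 0.06) and the stress cytokine GDF15 fell (14.8 and 16 CPM in D6, against 22 and 21.3 CPM in untreated cells; -0.49 ± 0.09). Of 22 p53 targets 2 rose (9.09%) and 2 fell (9.09%), with GADD45A, a growth arrest protein, at -0.26 ± 0.05 and RPS27L at 0.21 ± 0.06. Without 1 library at a time, 1 or 2 stress response genes were higher and 2 or 3 lower, and RPS27L lost its call in 3 of the 4 fits. TNFAIP3, the NF-kB inhibitor A20, had 19.5 and 19.6 CPM in D6, against 13.3 and 11.7 CPM in untreated cells (0.65 ± 0.12, edgeR adjusted p = 0.000271), and TNFAIP2 was the other of 2 higher among 20 NF-kB targets (10%), whose median was below 0 at -0.23. TNFAIP2 lost its call without the first D6 or the first untreated library. CTSA, a lysosomal carboxypeptidase, had 203 and 204 CPM in D6, against 112 and 104 CPM in untreated cells (0.91 ± 0.05, edgeR adjusted p = 1.01e-16). It was the 1 gene called of 28 for endosomes and lysosomes (3.57%, near the share over all genes). None of 13 mitochondrially encoded mRNAs was called by edgeR over the 18 libraries or by DESeq2, and 0 had an unadjusted p under 0.05, while edgeR on the D6 and untreated libraries alone called 3 higher.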

How the data were processed

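RNA of 18 libraries, 2 in each of 9 groups, had been sequenced from stranded, polyA-selected libraries, per the labels' protocols. The deposited values are raw counts per gene for 41285 genes. The submitters' processing notes name STAR 2.7.8a, cutadapt 2.10, featureCounts 2.0.2, FastQC 0.11.9 and GRCh38.p13. No source used here gives the annotation release, strand setting or handling of multi-mapping reads, so near-identical, overlapping and antisense genes are uncertain. Groups follow the labels.

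Here filterByExpr by group left 22143 genes. Counts were TMM-scaled and fitted with edgeR 4.0.16 (R 4.3.3), robust quasi-likelihood, 9 group means over 18 libraries, 9 residual degrees of freedom, common biological coefficient of variation 0.0569. Standard errors are the fold change over the root of F, approximate where counts are few. Calls took p under 0.05 after Benjamini-Hochberg adjustment across all tested genes. Fit and calls were tested on simulated data. Named genes are SAMD9 and SAMD9L, the 12 largest rises and falls with a mean of at least 1 CPM and no overlap (5 for D6 against D2000), and the 3 smallest adjusted p-values of 23 lists; further list members were named after their values were seen, and some are not reported here. Comparison, lists and rule were chosen with earlier results of these data known. Same-numbered libraries did not deviate together (correlation of deviations -0.02 for D6 with untreated cells). With 2 against 2, an exact permutation test cannot go below p = 0.333. DESeq2, other scalings and filters were alternatives.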

Additional observations from a re-analysis of the deposited data

Results flagged for a closer look

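The doxycycline effect differed between VPR-D9 group D6 and KRAB-D9, by the interaction term of the edgeR model, for 3433 genes. It also differed for 18 of the 26 genes named for their size of change in D6 or as the SAMD9 pair, 11 of them more positive and 7 more negative in D6, against 15.5% of all genes. Most of these genes were named for the size of their change in D6, which is 1 term of the difference, so that count and its signs are a description and no test.

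SAMD9 differed by 7.20 on the log2 scale, D6 effect minus KRAB-D9 effect, its level with doxycycline being higher in VPR-D9 but lower in KRAB-D9. The size of that difference is uncertain, since the KRAB-D9 libraries had 0 and 6 SAMD9 counts with doxycycline and 40 and 16 untreated. The named rises differed by 4.53 for PMEL, 5.86 for SFN, 6.06 for MPP2, 5.80 for TMEM255A, 5.42 for SMPDL3B, 4.72 for AHNAK2 and 4.45 for CLIC3. DPEP1 (14.04), RNF223 (13.89) and GNG8 (12.41) also differed, with fitted values that depend on the prior count because some groups had few or no counts.

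Among the named falls, the difference was -2.34 for HMCN1, -1.77 for PTPRR, -1.70 for TDH, -1.64 for LINC00858, -1.24 for GRAP2, -1.20 for FAM178B and -0.96 for MMP17. The 2 lines differ in the fusion that doxycycline induces and in their untreated state. Dose or duration of doxycycline may differ as well, since no source used here says what the code D6 stands for. The part of each in these differences was not tested and cannot be told apart here.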

How the results depend on the processing

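SAMD9 in D6 against untreated cells stayed between 3.94 and 4 on the log2 scale in 12 other settings. SAMD9L ran from -0.23 to 0.13 over the fits without 1 library, with 0.13 without the second untreated library, and was not called in any. The counts of higher and lower genes, 707 and 754, became 1166 and 1161 when only the D6 and untreated libraries were fitted. Lower genes numbered 394 with library totals, and 1208 without the KRAB-D9 interferon group, a setting chosen after seeing the data because the variance between its libraries was 14.1 times that of counting alone (4.33 to 5.56 elsewhere). Leaving out 1 library gave 431 to 460 higher and 301 to 404 lower genes; the lone library left is assumed to vary like the other groups. D6 against D2000 gave 2945 higher and 6481 lower genes with library totals, against 4797 and 4152. The cause of these shifts was not tested. The replicate block, by library number, gave 701 higher and 743 lower genes, against 707 and 754. DESeq2's Wald test gave 769 and 845. Counts of genes whose doxycycline effect differed between the lines ranged from 2605 to 4130. Of 84 named genes called in D6 against untreated cells, SAMD9 aside, 48 kept that call in every setting that gave a value. The other 36 lost it in at least 1, with none reversed. DESeq2 and the fit to the D6 and untreated libraries alone each gave a value for 83 of the 84. Calls in D6 against D2000 and in the interaction were not part of this count. Library totals lost 12 of the 84. For genes of a few counts, depth limits the fold change to a bound or an interval.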
